A study of Mus musculus with 6 samples.

Results

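The 8 Msx and Dlx homeobox genes of the mouse listed here, Msx1, Msx2 and Dlx1 to Dlx6, were taken by name from a table of 30349 genes measured in cultured epidermal keratinocytes. All 8 are listed in it. Wild type cells gave 3 libraries (replicates 13, 14 and 15) and p63 alphaKO cells gave another 3 (replicates 9, 10 and 11), each from primary cells of skin taken at postnatal day 2. The part of Trp63 that the p63 alphaKO allele lacks is not named in the labels, nor do they say whether replicates are separate animals, so p-values measure the spread between these cultures, which may be technical. Both groups grew for 5 to 6 days to confluence, with calcium at 0.05 mM, EGF at 2.5 ng/mL and chelated serum at 4%, a low-calcium condition that keeps most keratinocytes basal-like. RNA was sequenced from transcript 3' ends, and the values are CPM (reads per 1000000 reads of a library).

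Msx and Dlx proteins are DNA-binding homeodomain transcription factors of developing ectoderm and of the mesenchyme beneath it, and BMP signals are a common input to both families. Msx2 is active in the hair follicle, and mice without it lose and regrow their hair in abnormal cycles. Dlx3 acts in suprabasal epidermis and in the hair shaft, and its mutation in people causes tricho-dento-osseous syndrome. Trp63 encodes p63, the master regulator of stratified epithelia, and Dlx3, Dlx5 and Dlx6 have been reported as genes that p63 controls in skin or limb bud.

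The 6 Dlx genes form 3 pairs whose members point their 3' ends at each other. In GENCODE vM21 (GRCm38, the mm10 build), Dlx1 (chromosome 2, 71528113 to 71533981, plus strand) and Dlx2 (chromosome 2, 71543408 to 71546754, minus strand) lie 9.43 kb apart. Dlx3 (chromosome 11, 95120119 to 95125296, plus strand) and Dlx4 (chromosome 11, 95140447 to 95146263, minus strand) lie 15.2 kb apart. Dlx6 (chromosome 6, 6863334 to 6868568, plus strand) and Dlx5 (chromosome 6, 6877805 to 6882085, minus strand) lie 9.24 kb apart. Msx1 (chromosome 5, 37820485 to 37824583) and Msx2 (chromosome 13, 53466884 to 53473074), both on the minus strand, stand alone. Each value here is for a whole gene and does not tell its transcripts apart.

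The promoters of Msx2 and Dlx2 are printed because these members had the largest differences between the groups among those tested. RefSeq sequences on GRCm38.p6, 250 bases before to 50 after the gene's RefSeq start, were found for 4 of the 8 members (Msx1, Msx2, Dlx1 and Dlx2). Both below are on the minus strand, written 5′ to 3′. Capitals mark any match to TAATTA or TAATTG (cores bound by many homeodomains), GGCGCC (bound by BMP-activated Smads) or CATG (a form of the p63 half-site core). All were searched on both strands, and other forms of the p63 core were not searched.
Msx2 promoter, chr13:53472731-53473030: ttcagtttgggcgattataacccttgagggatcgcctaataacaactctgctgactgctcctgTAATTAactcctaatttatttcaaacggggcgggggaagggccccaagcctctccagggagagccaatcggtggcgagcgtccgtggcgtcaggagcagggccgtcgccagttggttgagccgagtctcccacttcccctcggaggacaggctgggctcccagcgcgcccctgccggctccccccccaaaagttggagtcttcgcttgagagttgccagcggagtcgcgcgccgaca
Dlx2 promoter, chr2:71546705-71547004: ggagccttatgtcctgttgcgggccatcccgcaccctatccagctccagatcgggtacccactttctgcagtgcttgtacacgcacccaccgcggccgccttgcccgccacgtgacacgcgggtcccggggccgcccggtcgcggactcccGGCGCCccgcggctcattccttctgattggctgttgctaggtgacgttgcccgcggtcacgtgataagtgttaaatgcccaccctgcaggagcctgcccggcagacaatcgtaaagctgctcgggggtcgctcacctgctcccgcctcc
The Msx2 window holds TAATTA once, starting at base -187 from the RefSeq start, and no other of the searched motifs. TAATTA is found in 5.29% of the 32851 RefSeq mouse promoters of this length. The Dlx2 window holds GGCGCC once, starting at base -99, a motif found in 11.9% of those promoters. TAATTG (8% of promoters) and CATG (61.1%) are in neither window, and the matches do not overlap. The Msx1 and Dlx1 windows hold none of these motifs. For Msx2 and Dlx1 the GENCODE gene begins further upstream than the RefSeq start, so both windows lie within the GENCODE bounds. These bounds are 53466884 to 53473074 for Msx2 and 71528113 to 71533981 for Dlx1, whose window is 71529195 to 71529494. A match is a description of letters and was not linked to binding.

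The libraries held 3180984, 3215333 and 3146374 reads in wild type and 2188705, 2999246 and 1699716 in p63 alphaKO. The keratinocyte markers Krt5, Krt14, Itga6, Itgb4, Col17a1, Cdh1, Perp and Dsp were read in every library and summed to 28270 to 32709 CPM in wild type against 23867 to 34188 CPM in p63 alphaKO. A count of 0 allows up to 3 reads at a one-sided 95% bound, whereas the exact intervals on reads are two-sided. These 3 reads correspond to 0.933 CPM in the deepest library and to 1.76 CPM in the shallowest. In earlier results of these data, wild type replicate 15 and p63 alphaKO replicate 11 stood apart from the other 4. Intervals on reads cover counting error alone. Whether molecular identifiers were used is not given, so reads may not be independent molecules.

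The members are scarce transcripts in these cultures: 316 reads in all 6 libraries together came from the 8 genes. Msx2 (131 reads), Dlx3 (83) and Dlx2 (64) were read in all 6 libraries. Dlx1 (14 reads), Dlx4 (12), Dlx5 (11) and Msx1 (1) were read in 4, 5, 4 and 1 libraries. Dlx6 had no read in any. The number of members with a read was 5, 5 and 7 in wild type replicates 13, 14 and 15 and 5, 6 and 4 in p63 alphaKO replicates 9, 10 and 11.

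**Figure D1:**
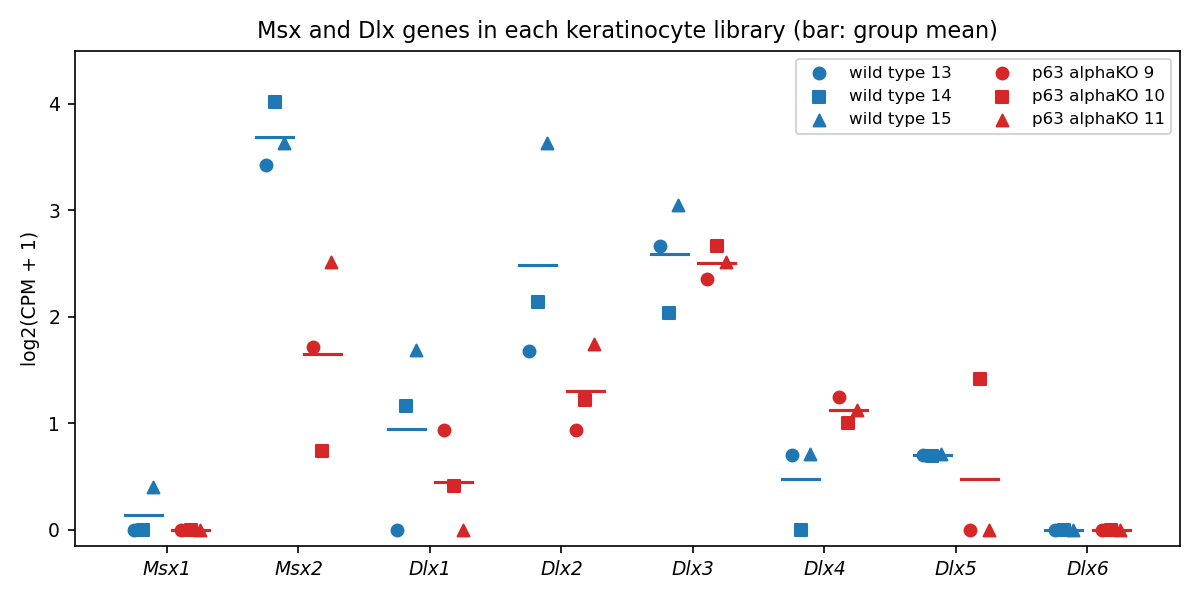
Level of each member as log2(CPM + 1) on the vertical axis, for each wild type library (blue) and p63 alphaKO library (red), with a bar at the group mean. Msx2 is the tested member whose groups do not overlap, and in Dlx2 wild type replicate 15 (11.44 CPM) lies above the other 5 libraries.

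The comparison asks how the level of each member differs between wild type and p63 alphaKO keratinocytes. The 11716 genes whose mean over all libraries reached 1 CPM were tested with limma on log2(CPM + 1). Of the 8 members 3 passed this filter (Msx2, Dlx2 and Dlx3) and 5 did not. None of the 3 passed the threshold of 0.05 on the Benjamini-Hochberg adjusted p, where 0.0427% of all tested genes did (5 genes). At an unadjusted p under 0.05, limma found 1 of the 3 (Msx2), against 6.36% of all tested genes. Count tests on the reads recovered from CPM, edgeR and DESeq2, called none of the 3 either, against 0.0171% and 0.128% of all tested genes. Each gave an unadjusted p under 0.05 for 2 of the 3 (Msx2 and Dlx2), against 6.15% (edgeR) and 5.54% (DESeq2) of all tested genes.

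In wild type replicates 13, 14 and 15, Msx2, a homeodomain repressor of hair follicle and epidermis, was read at 9.74, 15.23 and 11.44 CPM (31, 49 and 36 reads). In p63 alphaKO replicates 9, 10 and 11 it was read at 2.28, 0.67 and 4.70 CPM (5, 2 and 8 reads). All 3 p63 alphaKO libraries lay below all 3 wild type libraries, an order that 5.09% of all tested genes share. The means were 12.1 ± 2.81 CPM (SD, n = 3) and 2.55 ± 2.03 CPM (SD, n = 3). On the log2(CPM + 1) scale the difference was -2.04 (SE 0.49, limma adjusted p = 0.324, unadjusted p = 6.09e-04, n = 3 per group), which is 4.11-fold (unadjusted 95% interval 2.02 to 8.38) toward wild type. The added 1 CPM makes this scale understate the change of genes this low. By p, Msx2 stood at place 22 among the 11716 genes.

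Counting error is large at this depth. Pooled over the libraries, Msx2 had 116 reads in wild type and 15 in p63 alphaKO, a rate ratio of 5.58 (exact 95% interval 3.25 to 10.3, for counting error only). The exact 95% counting interval of p63 alphaKO replicate 11 (2.03 to 9.27 CPM) reached into those of wild type replicates 13 (6.62 to 13.8 CPM) and 15 (8.01 to 15.8 CPM), while those of p63 alphaKO replicates 9 (0.741 to 5.33 CPM) and 10 (0.0807 to 2.41 CPM) lay below all 3 wild type intervals. Without p63 alphaKO replicate 11, the highest and shallowest library of its group, the log2 difference was -2.47 (limma adjusted p = 0.0589). Without p63 alphaKO replicate 10, the lowest of its group, it was -1.58 (limma adjusted p = 0.431). Without wild type replicate 14, the highest of its group, it was -1.88 (limma adjusted p = 0.999). Over the 17 alternatives tried, the difference stayed below 0 and the adjusted p ran from 0.0589 to 0.999.

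**Figure D2:**
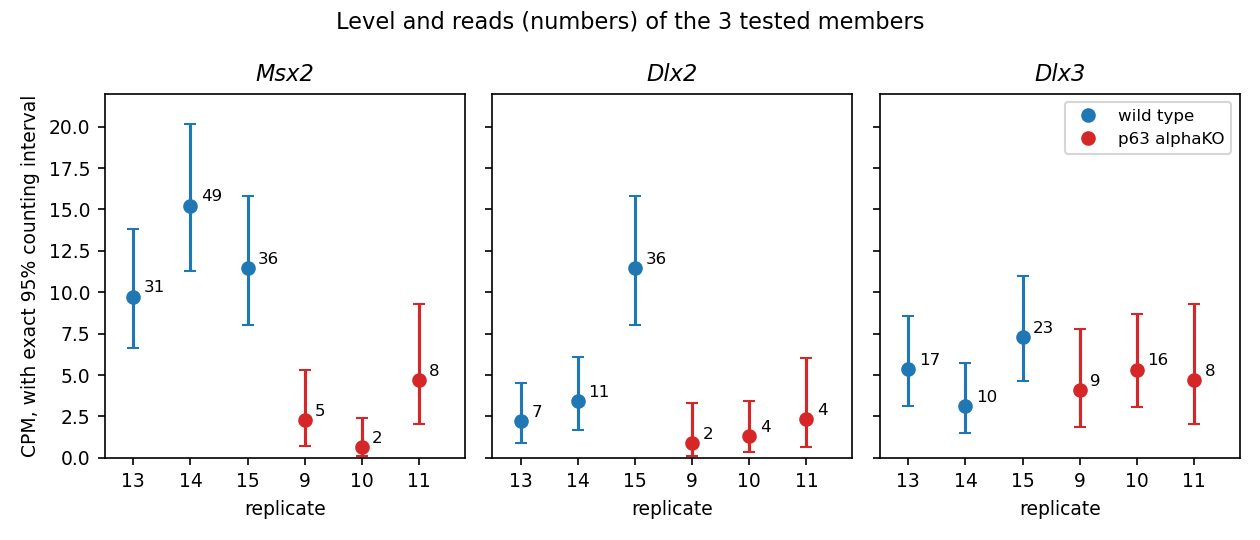
CPM of Msx2, Dlx2 and Dlx3 in each library by replicate number, with its exact 95% counting interval as the bar and its number of reads beside the point; wild type is blue and p63 alphaKO is red. The Msx2 points of the 2 groups are apart (9.74 to 15.23 against 0.67 to 4.70 CPM), those of Dlx3 overlap, and Dlx2 has 36 reads in wild type replicate 15 against 2 to 11 elsewhere.

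Dlx2, a homeodomain activator known from branchial arch, tooth and forebrain development, was read at 2.20, 3.42 and 11.44 CPM in wild type (7, 11 and 36 reads) and at 0.91, 1.33 and 2.35 CPM in p63 alphaKO (2, 4 and 4 reads). Its groups overlapped, since p63 alphaKO replicate 11 was above wild type replicate 13, and wild type replicate 15 was far above the rest. The log2 difference was -1.19 (SE 0.57, limma adjusted p = 0.778, n = 3 per group). Without wild type replicate 15 it was -0.61 (limma adjusted p = 0.878). The pooled reads, 54 against 10, gave a rate ratio of 3.90 toward wild type (exact 95% interval 1.97 to 8.58, for counting error only), and 36 of those 54 reads came from replicate 15.

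The neighbour of Dlx2 in its pair, Dlx1, had 0, 4 and 7 reads in wild type and 2, 1 and 0 in p63 alphaKO (0, 1.24 and 2.22 CPM, then 0.91, 0.33 and 0 CPM). The groups overlapped, and replicate 15 was again the highest wild type library. The 11 pooled reads in wild type against 3 in p63 alphaKO gave a ratio of 2.65 (exact 95% interval 0.699 to 14.8), so no difference was detectable for Dlx1 at this depth.

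Dlx3, the family member tied to epidermal differentiation, was read at 5.34, 3.11 and 7.31 CPM in wild type (17, 10 and 23 reads) and at 4.11, 5.33 and 4.70 CPM in p63 alphaKO (9, 16 and 8 reads). The p63 alphaKO libraries all lay inside the wild type range. The means were 5.25 ± 2.10 CPM (SD, n = 3) and 4.71 ± 0.610 CPM (SD, n = 3), and the log2 difference was -0.08 (SE 0.45, limma adjusted p = 0.997). Its unadjusted 95% interval, -1.02 to 0.87, covers folds of wild type over p63 alphaKO from 0.548 to 2.03. Its sign was positive without wild type replicate 15 (0.16). Trp63 was read at 46.7 ± 7.81 CPM in wild type against 55.4 ± 4.98 CPM in p63 alphaKO (log2 difference 0.25, limma adjusted p = 0.926), a value per gene that does not check the genotype.

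**Figure D3:**
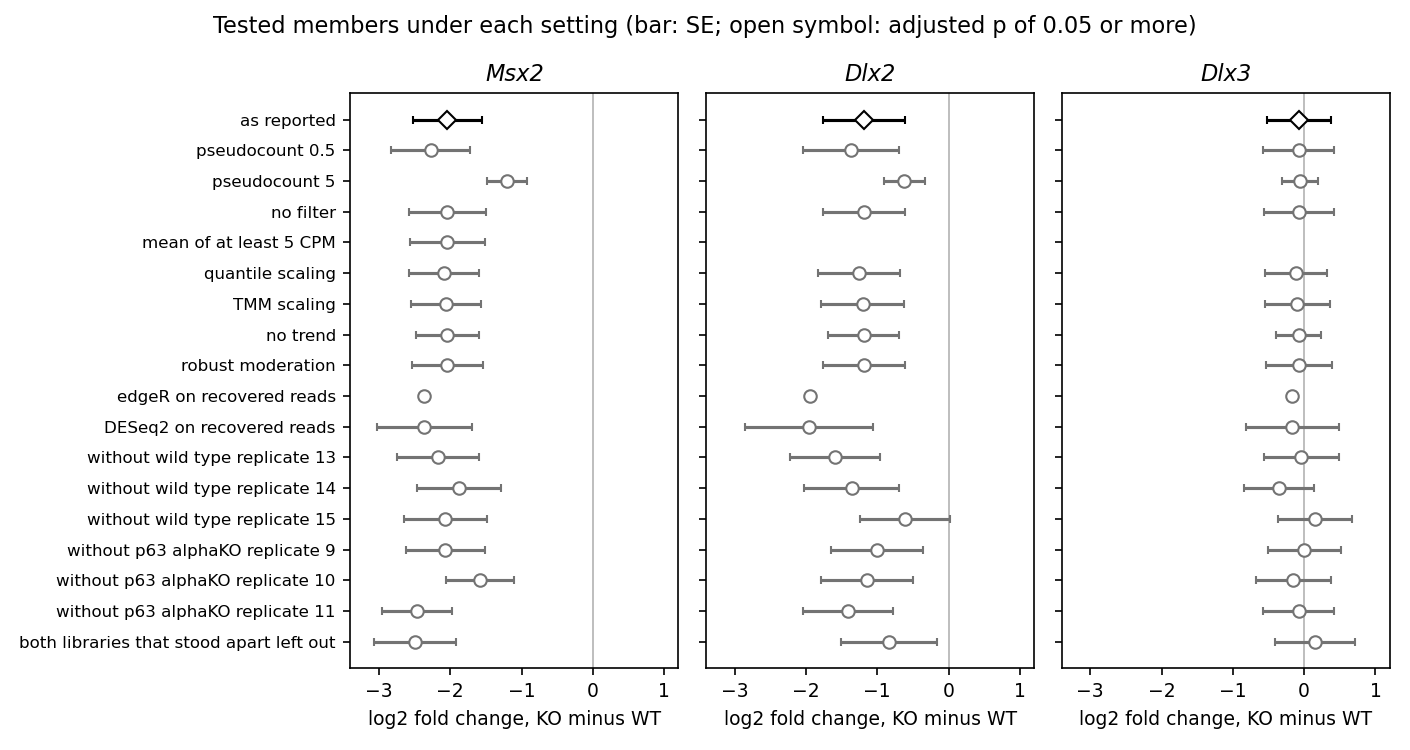
Log2 difference (p63 alphaKO minus wild type) of the 3 tested members on the horizontal axis, under the reported fit (diamond) and each alternative (circles), with bars for the SE where the tool gives one. Msx2 lies at -2.50 to -1.20 and Dlx2 at -1.96 to -0.61 throughout, Dlx3 lies on both sides of 0, and all symbols are open, since none had an adjusted p under 0.05.

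Dlx4, the pair partner of Dlx3 and known mainly from placenta and blood cells, had 2, 0 and 2 reads in wild type and 3, 3 and 2 in p63 alphaKO. In CPM these are 0.63, 0 and 0.64 against 1.37, 1.00 and 1.18, and the p63 alphaKO libraries lay above the wild type libraries. Among tested genes, which do not include Dlx4, 11.5% did not overlap in either direction. The 2 reads of p63 alphaKO replicate 11 are as many as those of wild type replicates 13 and 15. They give a higher CPM because that library is shallower. With 4 and 8 pooled reads the ratio toward p63 alphaKO was 2.77 (exact 95% interval 0.742 to 12.6), a range that includes equal rates. Dlx4os, transcribed from the opposite strand across the start of Dlx4 (chromosome 11, 95145052 to 95159047, plus strand), had 2 reads, both in wild type replicate 15. Whether the counting used strand is not given in the sources used here, so reads where the genes overlap cannot be assigned to either.

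Dlx5 and Dlx6, which together are needed for limb, jaw and inner ear development, had few reads or none. Dlx5 had 2 reads in each wild type library (0.62 to 0.64 CPM) and 0, 5 and 0 in p63 alphaKO replicates 9, 10 and 11, all 5 of the latter (1.67 CPM) in replicate 10. The ratio of the pooled rates, p63 alphaKO over wild type, was 1.15 (exact 95% interval 0.279 to 4.54). Dlx6 had 0 reads in 9542691 wild type and 6887667 p63 alphaKO reads. At the one-sided 95% bound of 3 pooled reads, this allows up to 0.314 and 0.436 CPM per group. The opposite-strand RNA genes Dlx6os1 and Dlx1as were listed at 0 as well.

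Msx1, known for its part in tooth and palate, had 1 read in all, in wild type replicate 15 (0.32 CPM). Both groups lay under the level of 3 reads, so no ratio is given. The third Msx gene of the mouse, Msx3, which is not a member, was listed at 0 in all 6 libraries.

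The make-up of the family's reads also differed between libraries. Msx2 gave 52.5%, 64.5% and 33.6% of the members' reads in wild type replicates 13, 14 and 15 (of 59, 76 and 107 reads) and 23.8%, 6.45% and 36.4% in p63 alphaKO replicates 9, 10 and 11 (of 21, 31 and 22 reads). These shares overlapped between the groups, because p63 alphaKO replicate 11 (exact Clopper-Pearson 95% interval 17.2% to 59.3%) was level with wild type replicate 15 (24.8% to 43.4%). Dlx3 gave 28.8%, 13.2% and 21.5% in wild type and 42.9%, 51.6% and 36.4% in p63 alphaKO, higher in all 3 p63 alphaKO libraries. The exact Clopper-Pearson 95% interval of p63 alphaKO replicate 10 (33.1% to 69.8%) lay above those of wild type replicates 14 (6.49% to 22.9%) and 15 (14.1% to 30.5%), and all other intervals overlapped between the groups. This share is relative to the reads of the other members, and the mean level of Dlx3 itself was 5.25 CPM in wild type against 4.71 CPM in p63 alphaKO. The share of Dlx2 was 11.9%, 14.5% and 33.6% in wild type and 9.52%, 12.9% and 18.2% in p63 alphaKO, and overlapped.

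Within a library, log2(CPM + 1) of Msx2 exceeded that of Dlx3 by 0.76, 1.98 and 0.58 in wild type replicates 13, 14 and 15. In p63 alphaKO replicates 9, 10 and 11 the difference was -0.64, -1.92 and 0, so the groups did not overlap. The change in this difference was -1.96 (exact permutation p = 0.10, two-sided, the smallest that 3 against 3 allow). It was -1.11 for Dlx2 minus Dlx3 (exact permutation p = 0.20) and -0.85 for Msx2 minus Dlx2 (exact permutation p = 0.30). These 3 comparisons were chosen after the values were seen, and each had an adjusted exact permutation p of 0.30. With 3 libraries per group no exact permutation test can reach 0.05, so these differences are given as values.

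BMP signalling genes, which include known inputs and partners of Msx and Dlx factors, had 17 of 24 genes tested, 14 lower and 3 higher in p63 alphaKO, with a median log2 difference of -0.48. Among all tested genes 49.3% were lower and the median was 0.01. None of the 17 passed with limma, edgeR or DESeq2, and 1 had an unadjusted limma p under 0.05, against 6.36% of all tested genes. That gene was Fst, encoding the activin and BMP antagonist follistatin, at 474, 633 and 496 CPM in wild type against 163, 342 and 440 CPM in p63 alphaKO (log2 difference -0.86, limma adjusted p = 0.651). The next by p were Id3, a BMP target gene (-0.57), the ligand gene Bmp2 (-1.13, with 53 reads in wild type and 15 in p63 alphaKO) and the receptor gene Acvr1 (-0.64). The summed level of the list was 1112 to 1232 CPM in wild type against 761 to 956 CPM in p63 alphaKO, a gap that came mostly from Fst. Without Fst the sums were 599 to 693 CPM in wild type against 517 to 598 CPM in p63 alphaKO, and Fst was the 1 gene of the 17 whose groups did not overlap, where 11.5% of all tested genes did not overlap in either direction. The part of these genes in the Msx2 difference was not tested.

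Hair and ectodermal regulators, a list that holds genes reported downstream of Msx2 (Foxn1) and of Dlx3 (Hoxc13 and Gata3), had 11 of 12 members tested, 8 lower and 3 higher, with a median of -0.11. None passed with limma, edgeR or DESeq2, and 1 had an unadjusted limma p under 0.05, against 6.36% of all tested genes. Wnt10b, a Wnt ligand of the hair placode, had 32 reads in wild type and 3 in p63 alphaKO (log2 difference -1.45, limma adjusted p = 0.758). Foxn1, a factor of hair and keratinocyte differentiation, lay the other way, at 25.14, 24.56 and 22.87 CPM in wild type against 48.86, 31.99 and 30.56 CPM in p63 alphaKO (0.57, limma adjusted p = 0.794). The homeobox gene Cux1 stood at -0.54 and Hoxc13, a hair shaft homeobox gene, at -0.46. The groups did not overlap for 3 of the 11, Foxn1 (higher in p63 alphaKO) and Wnt10b and Cux1 (lower), against 11.5% of all tested genes.

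Other homeobox genes of 2 fixed lists, 81 in all, had 33 tested, 19 lower and 14 higher, with a median of -0.14. None of the 33 passed with limma, edgeR or DESeq2, and 26 of the 81 had no read. Of the 33, 1 (Barx2) had an unadjusted limma p under 0.05, against 6.36% of all tested genes. The groups did not overlap for 3 of the 33, against 11.5% of all tested genes. Among NK-like relatives of Msx and Dlx, 2 of 30 were tested: Barx2 at 59.6 ± 6.76 CPM in wild type against 38.1 ± 13.2 CPM in p63 alphaKO (-0.68, limma adjusted p = 0.758), and Emx2 at 37 and 8 pooled reads (-1.33, limma adjusted p = 0.778). In the other classes, 17 of 31 tested genes were lower, and the smallest p-values were those of Hopx (-0.60), Pou3f1 (-0.73), Cux1 (-0.54) and Tgif2 (-0.93). The value of Msx2, -2.04, lay below all 33, that of Dlx2 between Emx2 and the next gene, Pou2f3 (-1.15), and that of Dlx3 among the middle of the list. The 33 hold no Hox cluster gene, so this order does not cover that group.

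**Figure D4:**
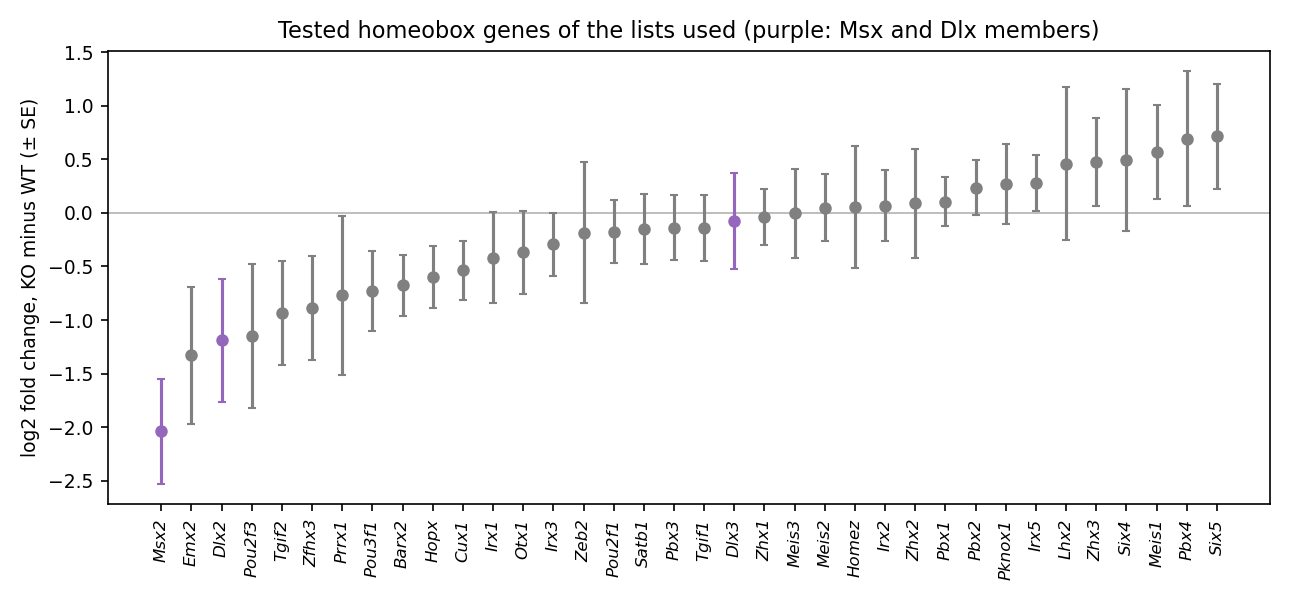
Log2 difference (p63 alphaKO minus wild type, on log2(CPM + 1)) with its limma SE for the 33 tested homeobox genes of the lists (grey) and the 3 tested members (purple), in order of size. Msx2 at -2.04 is the lowest point, Dlx2 at -1.19 lies beside Emx2 and Dlx3 at -0.08 lies near 0. Hox cluster genes are not among those shown.

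Cleft and ectodermal dysplasia genes, a group that shares its syndromes with Trp63 and Msx1, had 14 of 17 members tested, 8 lower and 6 higher, with a median of -0.08. None passed with limma, edgeR or DESeq2, and 2 had an unadjusted limma p under 0.05, against 6.36% of all tested genes. These were Eda, encoding the ligand ectodysplasin, with 14 reads in wild type and 32 in p63 alphaKO (log2 difference 1.27, limma adjusted p = 0.755), and the Notch ligand gene Jag2 (-0.79, limma adjusted p = 0.775). The adhesion genes Nectin1 (-0.48) and Nectin4 (-0.33) followed by p. The groups did not overlap for 3 of the 14 cleft and ectodermal dysplasia genes, against 11.5% of all tested genes. Suprabasal differentiation genes, where Dlx3 is known to act, had 12 of 14 tested members lower (median -0.49), and 1 of them, Krt1, passed (-2.44, limma adjusted p = 0.00686). DESeq2 called Krt10 as well. In that list 5 of 14 had an unadjusted limma p under 0.05, against 6.36% of all tested genes, and the groups did not overlap for 5 of 14, against 11.5%.

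The genes beside the members gave no call. The nearest protein-coding genes on each side, other than members, were 10, of which 7 were tested and 3 (Cytl1, Drd1 and Tac4) had no read. Their log2 differences ran from -0.57 to 0.18, and none passed with limma, edgeR or DESeq2. Of the 7, 1 had an unadjusted limma p under 0.05, against 6.36% of all tested genes. That gene was Sem1, 284.7 kb from Dlx6, at 153 ± 12.4 CPM in wild type against 105 ± 28.3 CPM in p63 alphaKO (-0.57, limma adjusted p = 0.761). Sptlc1, a serine palmitoyltransferase subunit gene 89.5 kb from Msx2, stood at -0.09, and Metap1d, 2.92 kb from Dlx1, at -0.15. The integrin genes Itga6, beyond Dlx2, and Itga3, before Dlx3, stood at -0.04 and 0.18, Stx18 beyond Msx1 at -0.57 and Sdhaf3 beyond Dlx5 at -0.25.

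Msx2 was the only member with a mean of at least 5 CPM, so genes of like pattern were sought for it alone. Over the 6 libraries, and among 9200 other genes of at least that level, log2(CPM + 1) correlated highest with Msx2 for Atl2 (Pearson r = 0.998), Trmu (0.989), Eva1a (0.988) and Tardbp (0.986). These are the extremes of many correlations over 6 points that share a split into groups and a sequencing depth, and are given as a description. Atl2, at 40.53, 45.39 and 43.84 CPM in wild type against 28.31, 21.99 and 32.92 CPM in p63 alphaKO, repeats the order of Msx2 in every library, with a smaller difference (-0.64, limma adjusted p = 0.761).

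Markers of other cells were set beside the members, since bulk RNA cannot tell fewer cells of a type from less RNA per cell. Of 7 hair follicle markers listed, 5 were at 0 in all libraries (Krt25, Krt27, Krt35, Lgr5 and Shh), and the list summed to 1.24 to 2.54 CPM in wild type against 0.91 to 4.33 CPM in p63 alphaKO, and these sums overlapped between the groups. For the 10 muscle genes the sum was 108, 111 and 797 CPM in the wild type libraries (replicate 15 last) against 36.1, 44.0 and 111 CPM in p63 alphaKO, and all 8 tested were lower in p63 alphaKO, with Myh3 and Myh8 at 0. The library highest in muscle genes, wild type replicate 15, was also the highest in Dlx2, Dlx1 and Dlx3, and the part of muscle RNA in those values was not tested. Melanocyte genes summed to 311 to 832 CPM in wild type against 234 to 1037 CPM in p63 alphaKO (7 of 10 lower). Fibroblast genes summed to 18.8 to 46.8 and 5.88 to 45.7 CPM (7 of 7 tested lower, with Lum at 0).

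Marker lists for further sources of Msx and Dlx transcripts were low or did not separate the groups. Dermal papilla genes summed to 94.7 to 132 CPM in wild type against 74.7 to 133 CPM in p63 alphaKO, nearly all from Prdm1, with Corin at 0. Osteoblast genes summed to 12.7 to 29.2 and 12.9 to 20.6 CPM, nearly all from Runx2, with Sp7, Bglap, Ibsp and Dmp1 at 0. Neuron genes summed to 50.5 to 123 and 86.4 to 117 CPM, mostly from Tubb3, with Gad1, Gad2 and Snap25 at 0. Endothelial (0.62 to 4.13 and 2.67 to 5.29 CPM), immune and Langerhans (0.93 to 6.35 and 2.34 to 7.76 CPM) and Merkel lists (0.31 to 7.31 and 0.59 to 2.33 CPM) were near 0. No gene of these cell type lists passed with limma, edgeR or DESeq2. Those with an unadjusted limma p under 0.05 were all in the muscle list, 7 of its 8 tested genes, against 6.36% of all tested genes. The groups did not overlap for 2 of these 8 muscle genes, against 11.5% of all tested genes. They were Ttn (log2 difference -3.66, limma adjusted p = 0.293) and Acta1 (-3.02, limma adjusted p = 0.310).

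**Figure D5:**
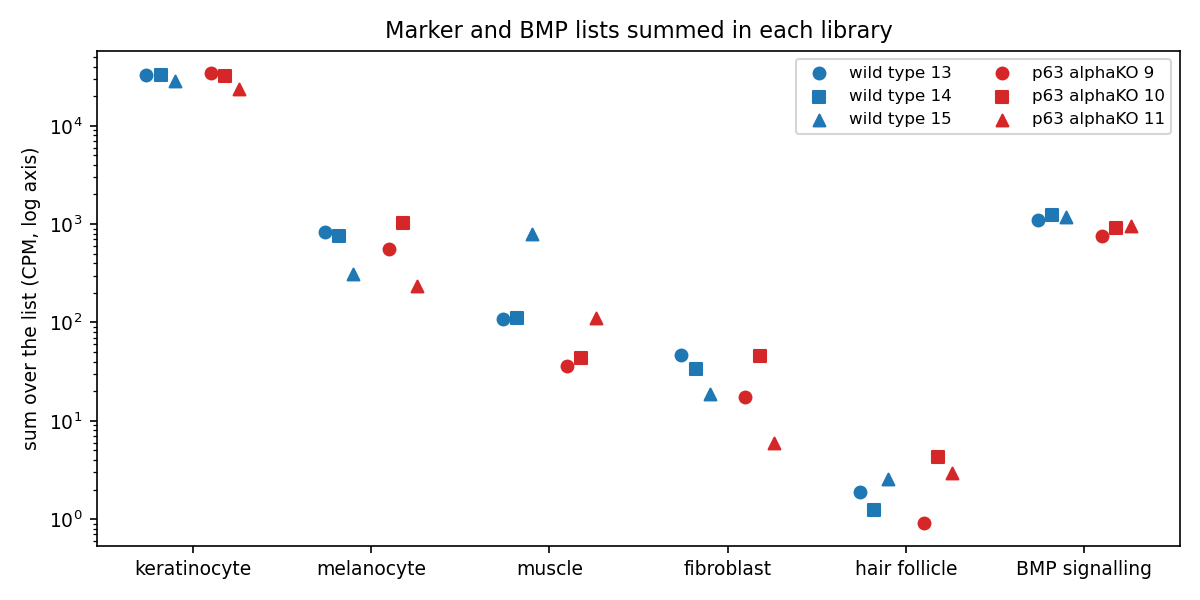
Summed CPM of 6 lists in each library on a log axis, wild type in blue and p63 alphaKO in red. The BMP signalling sums are 1112 to 1232 CPM in wild type and 761 to 956 CPM in p63 alphaKO, a gap that comes mostly from Fst, hair follicle sums reach at most 4.33 CPM, and the muscle sum is highest in wild type replicate 15 (797 CPM).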

How the data were processed

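RNA was sequenced by 3' digital gene expression, per the labels' protocols. The submitters' processing notes name STAR, HTSeq and mm10 without roles. Not given in the sources used here are versions, gene annotation, filters, strand use and molecular identifiers. The authors deposited 1 table of CPM with 2 decimals. Each column is 1 library, and all 6 were used.

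Whole reads were recovered by dividing by the CPM of 1 read, and 99.97% or more of the values above 0 in each library lay within 0.1 read of a whole number. Library totals were 1699716 to 3215333 reads. The test was limma 3.58.1 (R 4.3.3, eBayes with trend) on log2(CPM + 1), for genes whose mean reached 1 CPM, two-sided, with Benjamini-Hochberg adjustment over all 11716 and a threshold of 0.05. Differences are p63 alphaKO minus wild type. edgeR 4.0.16 and DESeq2 1.42.0 on recovered reads were alternatives, beside other pseudocounts, filters, scalings and moderation, and libraries left out. Rate ratios use pooled reads with exact conditional 95% intervals.

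The members and lists were chosen with earlier results of these data known. Named genes were the members, Trp63, the genes past the threshold in each list (up to 4, or the 4 of smallest p where none passed), neighbours, opposite-strand RNAs and the 4 genes most like each member of at least 5 CPM. Pou2f3 was named after its value was seen. Krt85 of the hair follicle list was not matched by symbol. The lists were BMP signalling, hair and ectodermal regulators, cleft and ectodermal dysplasia, suprabasal differentiation, 2 homeobox lists and 11 cell type lists. Coordinates are from GENCODE vM21, which holds 28516 of the table's symbols exactly once.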

Additional observations from a re-analysis of the deposited data

How the results depend on the processing

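No paired analysis was possible because the groups share no replicate numbers. Across the 17 alternatives no tested member passed the threshold. Msx2 stayed below 0 in all 17 (-2.50 to -1.20) and Dlx2 in the 16 that tested it (-1.96 to -0.61). Dlx2 was -0.62 with a pseudocount of 5, -1.94 by edgeR and -1.96 by DESeq2. Leaving out 1 library gave -2.47 to -1.58 for Msx2, -1.59 to -0.61 for Dlx2 and -0.35 to 0.16 for Dlx3. Dlx3 was above 0 without wild type replicate 15 (0.16), and likewise (4.27e-04) without p63 alphaKO replicate 9, and when leaving out both wild type replicate 15 and p63 alphaKO replicate 11 (0.16). Of the 3 tested members 3 were lower, against 6 of the 7 members tested with no filter, and 1 of 1 with a minimum mean of 5 CPM. These differences follow from which members were tested. Dlx5, among the 6 by its mean log2 difference (-0.23), had a pooled rate ratio the other way (1.15, p63 alphaKO over wild type).

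The number of all genes past the threshold, 5 as reported, was 2 with a pseudocount of 0.5, 3 with 5, 1 with no filter, 2 at a minimum mean of 5 CPM, 0 without the trend (827 at an unadjusted limma p under 0.05), 2 by edgeR and 15 by DESeq2. It ran from 2 to 13 when 1 library was left out, and was 48 without both wild type replicate 15 and p63 alphaKO replicate 11; the cause was not tested. Depth limits the 5 untested members, which had 0 to 14 reads in all, to levels and wide counting intervals. For Dlx4 the difference of mean log2(CPM + 1), 0.65, was 0.96 with a pseudocount of 0.5 and 0.19 with 5.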
